A study of Rattus norvegicus with 252 samples.

Results

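The 5 genes described here are ENSRNOG00000009411, ENSRNOG00000011680, ENSRNOG00000018070, ENSRNOG00000011789 and ENSRNOG00000014061, of 32883 genes in the count table. They were chosen by the p-values of these same data, as the genes of lowest p among those lower in the cerebellum of Q130 rats at 12 months that were not seen at 6 months. Their genotype differences in the cerebellum at those ages are therefore given as a description, and calls in those libraries are named only to place the genes against the rule. The study sequenced RNA of Long Evans rats, either wild type (WT) or with 1 copy of the Q130 knock-in allele (labelled Q130 KI Het), a model of Huntington disease. Each of 60 rats gave cerebellum, hippocampus, striatum and cortex, so the 240 study libraries form 24 groups of 10 by tissue, age (2, 6 or 12 months) and genotype, with 5 females and 5 males in each. The 12 other libraries repeat the striatum of males aged 2 or 6 months. All study libraries of 2 and 6 months belong to batch 1, and those of 12 months, with the repeats, to batch 2. Replicates are separate animals. No treatment is given in the labels, and both genotypes share the strain and the tissue handling.

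Huntington disease is caused by a lengthened run of glutamine codons in the huntingtin gene and damages the striatum most. The cerebellum, which tunes the timing and force of movement, is made up mostly of small granule neurons, with a single layer of large Purkinje neurons that carry its cortical output. A bulk tissue library sums the RNA of all these cells, so fewer cells of a type and less RNA per cell cannot be told apart. None of the identifiers in the count table matched the reference gene table (0 of 32883). The genes are therefore given by identifier, without a function or a sequence, and the cell type markers were not analysed here.

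Total counts ran from 25.3 to 50.8 M per library with a median of 34.3 M. Libraries of 1 tissue correlated closely, with a median r to the rest of at least 0.973, except 9 libraries of 7 animals at 0.962 or less. In the cerebellum these 9 include males 1 and 2 of the Q130 label at 2 months, and none at 6 or 12 months. The other 7 are forebrain libraries of 6 and 12 months, and 6 of them carry the Q130 label. Some of these correlated more with another tissue than with their own. Q130 hippocampus male 5 at 6 months had a median r of 0.983 to striatum and 0.933 to hippocampus. Q130 striatum male 1 at 6 months had 0.986 to hippocampus and 0.939 to striatum, and Q130 striatum female 2 at 12 months 0.977 and 0.961. Whether their tissue labels hold was not tested. At 12 months the first part of the animal identifiers was never shared between the genotypes, so whatever it stands for and the genotype cannot be told apart. At 6 months nearly all of these first parts belonged to 1 genotype as well, so nearly the same limit applies there.

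The animal of 1 set of libraries went against its label. ENSRNOG00000011073 was lower in Q130 than in WT rats in the cerebellum at 6 and 12 months and was used as a check of labels, chosen after its values had been seen. In the 12-month cerebellum the library labelled WT female 1 held 163 CPM (counts scaled to normalised library sizes), the other WT libraries 207 to 257 CPM and the Q130 libraries 123 to 176 CPM. The same animal lay below all other WT animals of its age and inside the Q130 range in all 4 tissues. It was the 1 animal of 60 that was nearer to the other genotype in all 4 tissues, and 53 animals were so in none. A WT male of 6 months was so in 3 tissues, and 1 of them is the cortical library that stood apart. Its cerebellar library, labelled WT male 5, held 179.6 CPM of ENSRNOG00000011073, inside the Q130 range of 152 to 188 CPM and below the other WT libraries at 237 to 273 CPM. When each cerebellar library of 12 months was left out in turn and placed by the genes called without it, that labelled WT female 1 was nearer to the Q130 rats at 330 of 446 genes (74.0%), and the other 19 libraries were nearer to the other genotype at 4.62 to 53.9% of their genes. The genotype of neither animal was tested by other means. The first is called the library labelled WT female 1 below, and values are given with and without it.

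**Figure D1:**
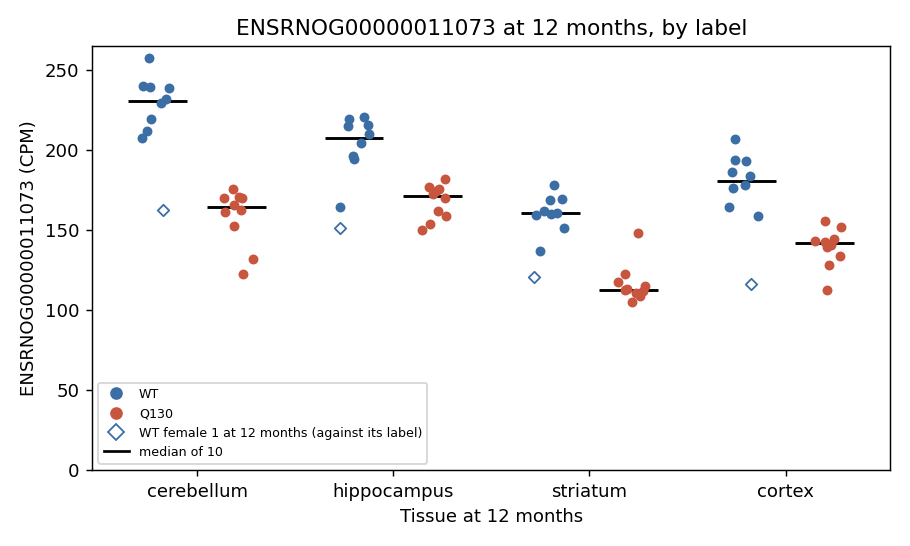
Level of ENSRNOG00000011073 (CPM, y axis) in each library of the 4 tissues at 12 months (x axis), by labelled genotype, with black bars at the median of 10. The open diamond is the animal of the cerebellar library labelled WT female 1, which lies inside the Q130 range in each tissue (163 CPM in the cerebellum, against 207 to 257 CPM in the other WT libraries).

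In the cerebellum at 12 months all 5 genes were lower in Q130 rats by about 14 to 21%, and for each gene all 10 Q130 libraries lay below the WT median. Over all genes, 548 of 15177 (3.61%) had every Q130 library below the WT median. ENSRNOG00000009411 ran from 424 through a median of 541 to 604 CPM in WT and from 408 through 427 to 480 CPM in Q130 rats. The groups overlapped through 1 WT library, the library labelled WT female 1 at 424 CPM, since the next lowest WT library held 514 CPM. The fitted log2 fold change was -0.30 ± 0.05 (SE).

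ENSRNOG00000011680 ran from 315 through 387 to 405 CPM in WT and from 299.9 through 324 to 346 CPM in Q130 rats. The library labelled WT female 1 was again the lowest of the WT group, and the next held 372 CPM. Its log2 fold change was -0.22 ± 0.04 (SE). ENSRNOG00000011789 ran from 85.6 through 108 to 122 CPM in WT and from 75.2 through 85.2 to 97.7 CPM in Q130 rats, a log2 fold change of -0.33 ± 0.05 (SE). Here too the lowest WT value belonged to that library, with the next at 100.4 CPM.

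ENSRNOG00000018070 ran from 27.9 through 36.7 to 40.4 CPM in WT and from 27.6 through 29.3 to 32.9 CPM in Q130 rats, a log2 fold change of -0.26 ± 0.04 (SE). Its overlap did not rest on the library labelled WT female 1 (27.9 CPM) alone, because 2 other WT libraries held 32.4 and 32.6 CPM. Both lay below 1 Q130 library alone, male 1 at 32.9 CPM, and the next highest Q130 library held 30.2 CPM. ENSRNOG00000014061 ran from 41.7 through 47.3 to 51.5 CPM in WT and from 34.7 through 38.2 to 46.9 CPM in Q130 rats, a log2 fold change of -0.26 ± 0.05 (SE). For this gene the library labelled WT female 1 (41.8 CPM) was not the lowest of its group, and 4 WT libraries lay within the Q130 range. That overlap rests on 1 library, Q130 female 2 at 46.9 CPM, since the other Q130 libraries held 34.7 to 40.8 CPM, below every WT library.

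Without the library labelled WT female 1 the WT and Q130 ranges did not overlap for 3 of the 5 genes, ENSRNOG00000009411, ENSRNOG00000011680 and ENSRNOG00000011789, against 23 of 15177 genes (0.152%) over the whole table. The genes were chosen in these libraries, and the library left out held the lowest WT value of these 3 genes. The count is therefore a description and no support for the genes. Without that library the log2 fold changes were -0.34, -0.25 and -0.36 for these 3 genes, -0.29 for ENSRNOG00000018070 and -0.28 for ENSRNOG00000014061. In all libraries the edgeR quasi-likelihood test called 238 of 15177 genes (1.57%) at 12 months, 107 of them lower in Q130 rats (0.705%). Without that library it called 446 of 15217 (2.93%), 208 of them lower (1.37%). The 5 genes are among the lower genes in both fits, which follows from how they were chosen. By sex, the log2 fold changes ran from -0.17 to -0.39 in females alone, a group that holds the library labelled WT female 1, and from -0.22 to -0.36 in males alone. The difference between the sexes was not tested.

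**Figure D2:**
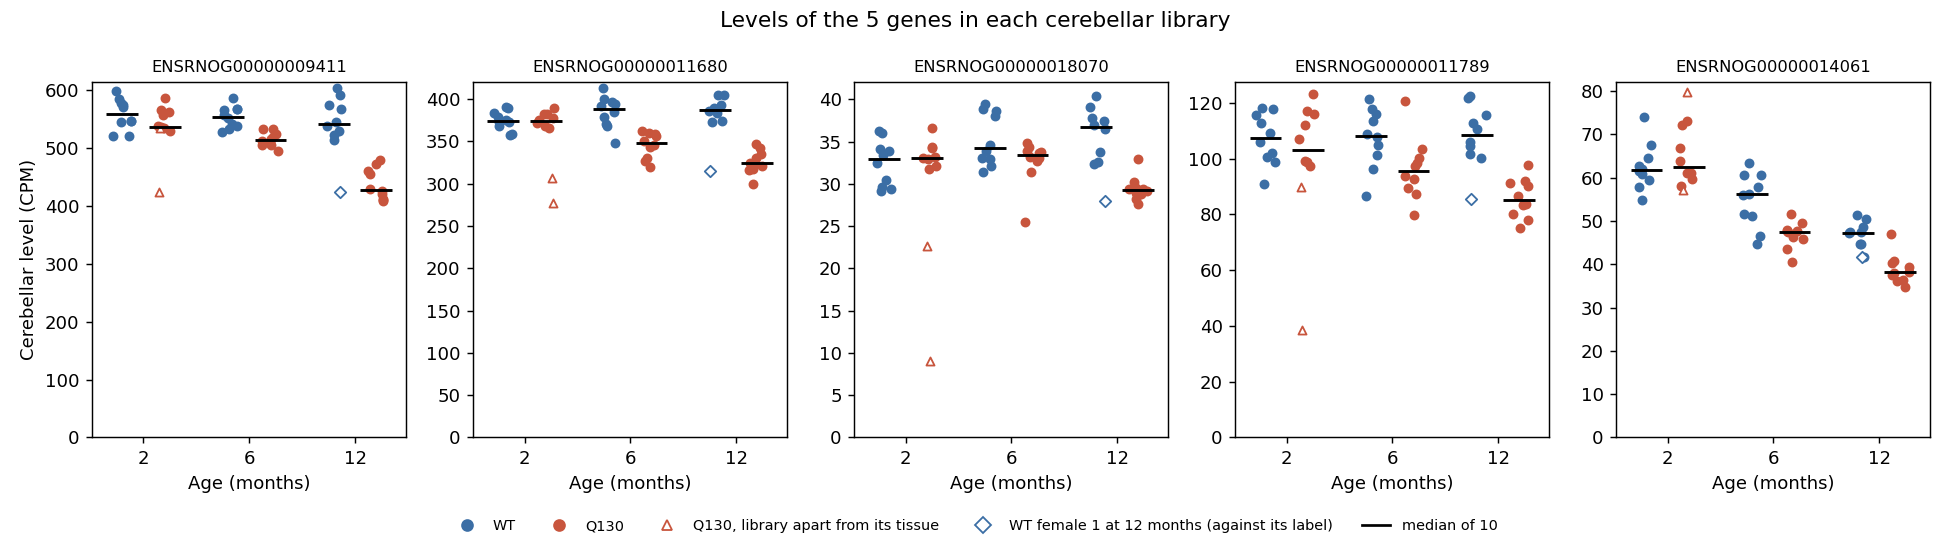
Level of each gene (CPM, y axes from 0) in every cerebellar study library by age (x axes, months), with WT in blue, Q130 in red and black bars at the median of 10. At 12 months the 10 Q130 libraries of each gene lie below the WT median, and the open diamond marks the library labelled WT female 1. The open triangles are the Q130 libraries at 2 months that stood apart from their tissue.

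The 5 genes hold ranks 4 to 8 by p among the genes lower in Q130 cerebellum at 12 months. Of the 3 above them, ENSRNOG00000005609 and ENSRNOG00000011073 were also called at 6 months (adjusted p 0.0133 and 7.13e-05, edgeR), and ENSRNOG00000059311 was not (adjusted p = 0.125). The last of these has a low level, 11.7 CPM in WT, and meets the rule as worded without being listed. The next genes not called at 6 months were ENSRNOG00000050419, ENSRNOG00000020467 and ENSRNOG00000000942, at ranks 10 to 12. Adjusted p at 12 months ran from 0.00485 to 0.00985 over the listed genes and from 0.0130 to 0.0164 over those 3. Of the listed genes 1 does not meet the rule in the fit used here, since ENSRNOG00000011680 was itself called at 6 months, close to the threshold (adjusted p = 0.0493, edgeR). That call was kept in 4 of 20 fits without 1 library (adjusted p 0.0148 to 0.115).

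At 6 months the estimates of all 5 genes were also lower in Q130 cerebellum, and 44 of 15305 genes were called over the whole table (0.287%). ENSRNOG00000009411 ran from 527 through 555 to 586 CPM in WT and from 496 through 514 to 533 CPM in Q130 rats, with 1 WT library inside the Q130 range. ENSRNOG00000011680 ran from 348 through 388 to 413 CPM in WT and from 319 through 348 to 362 CPM in Q130 rats, also with 1 WT library inside. For ENSRNOG00000014061 the values were 44.7, 56.1 and 63.5 CPM in WT against 40.5, 47.6 and 51.6 CPM in Q130 rats. In these 3 genes all 10 Q130 libraries were below the WT median at 6 months as well, against 552 of 15305 genes (3.61%) over the table. ENSRNOG00000011789 overlapped widely, with 86.6, 108 and 121.3 CPM in WT and 79.9, 95.6 and 120.8 CPM in Q130 rats, and so did ENSRNOG00000018070, with 31.4, 34.2 and 39.4 CPM against 25.4, 33.4 and 34.9 CPM. The log2 fold changes were -0.11 ± 0.03 for ENSRNOG00000009411, -0.16 ± 0.03 for ENSRNOG00000011680, -0.12 ± 0.05 for ENSRNOG00000018070, -0.16 ± 0.06 for ENSRNOG00000011789 and -0.23 ± 0.06 for ENSRNOG00000014061 (SE). In the library labelled WT male 5, ENSRNOG00000018070 (31.4 CPM) and ENSRNOG00000011789 (86.6 CPM) were the lowest of the WT group, while ENSRNOG00000009411 (567 CPM), ENSRNOG00000011680 (370.4 CPM) and ENSRNOG00000014061 (56.2 CPM) lay away from its lower end. Without it the log2 fold changes of all 5 genes ran from -0.10 to -0.23. Then 471 of 15351 genes (3.07%) were called, among them ENSRNOG00000009411, ENSRNOG00000011680 and ENSRNOG00000014061. Of these, ENSRNOG00000011680 was also called with all libraries. In the fits without 1 library ENSRNOG00000009411 was called in 1 of 20 and ENSRNOG00000014061 in 2 of 20. With all libraries DESeq2 called 3 of the 5 genes. Whether a gene counts as not seen at 6 months therefore depends on the libraries kept and on the method.

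The cerebellum at 2 months played no part in the choice of genes, and there none of the 5 was called (0 of 5, against 0 of 15349 genes or 0% over the table, edgeR, adjusted p = 0.973 for each). Of the 5 genes 0 also had an unadjusted p under 0.05 (1.59% of all genes did), and DESeq2 and limma-voom called 0. ENSRNOG00000009411 ran from 521 through 559 to 599 CPM in WT and from 424 through 537 to 587 CPM in Q130 rats, a log2 fold change of -0.07 with a 95% interval from -0.17 to 0.03. ENSRNOG00000011680 ran from 357 through 374 to 391 CPM and from 277 through 374 to 389 CPM, and its interval was -0.20 to 0.05. The medians of this gene were 373.7 and 373.6 CPM, and its lowest Q130 values, 277 and 307 CPM, were those of the 2 libraries that stood apart. ENSRNOG00000014061 was the gene with an estimate above 0, at 54.9, 61.8 and 74.0 CPM in WT and 57.2, 62.5 and 79.8 CPM in Q130 rats (interval -0.08 to 0.17).

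The libraries that stood apart carried the lowest values of ENSRNOG00000018070 and ENSRNOG00000011789 at 2 months. ENSRNOG00000018070 held 8.99 CPM in Q130 male 1 and 22.6 CPM in Q130 male 2, against a WT range of 29.2 to 36.2 CPM and a Q130 median of 33.0 CPM. ENSRNOG00000011789 held 89.95 and 38.6 CPM there, against 91.1 to 118 CPM in WT. Without both libraries the log2 fold changes were 0.05 ± 0.05 and 0.01 ± 0.05 (SE), in place of -0.13 ± 0.16 (95% interval -0.48 to 0.21) and -0.12 ± 0.14 (-0.41 to 0.17), and 2 of 15435 genes (0.0130%) were called over the table, neither of them among the 5. The estimates of ENSRNOG00000009411, ENSRNOG00000011680 and ENSRNOG00000014061 were then -0.03, 0.00 and 0.03.

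Within WT rats the cerebellar medians at 2, 6 and 12 months were 559, 555 and 541 CPM for ENSRNOG00000009411, 374, 388 and 387 CPM for ENSRNOG00000011680, and 107.6, 108.3 and 108.3 CPM for ENSRNOG00000011789. ENSRNOG00000014061 was lower at the later ages in both genotypes, with WT medians of 61.8, 56.1 and 47.3 CPM and Q130 medians of 62.5, 47.6 and 38.2 CPM. In Q130 rats ENSRNOG00000009411 had medians of 537, 514 and 427 CPM, ENSRNOG00000011680 of 374, 348 and 324 CPM, and ENSRNOG00000011789 of 103, 95.6 and 85.2 CPM. ENSRNOG00000018070 held 33.0, 33.4 and 29.3 CPM in Q130 and 32.9, 34.2 and 36.7 CPM in WT rats, so its gap at 12 months came with a lower Q130 and a higher WT median. These are descriptions, since the 6- and 12-month cerebellar libraries were used to choose the genes, and age 12 months and batch 2 cannot be told apart. The difference of the genotype effects between ages was not tested.

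All 5 genes were higher in the cerebellum than in each other tissue of the same WT rats at 2 months, in libraries that played no part in their choice. The edgeR test, with the animal as a block, called each of the 15 differences. Over all genes 6845 of 16194 (42.3%) were called higher in cerebellum than in striatum, 6689 (41.3%) than in cortex and 6682 (41.3%) than in hippocampus. On the scale per length (TPM) the cerebellar median was 637 for ENSRNOG00000009411, 161 for ENSRNOG00000011680, 57.9 for ENSRNOG00000018070, 55.9 for ENSRNOG00000014061 and 38.5 for ENSRNOG00000011789. The medians of ENSRNOG00000018070 and ENSRNOG00000014061 were the closest in this order, and differences in level between genes were not tested. Between the other tissues 69.2 to 79.9% of genes were called (69.2% hippocampus against cortex, 77.3% hippocampus against striatum, 79.9% striatum against cortex).

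The gene with the widest range was ENSRNOG00000011680, which was higher in cerebellum by 5.89 ± 0.08 than in striatum, by 5.85 ± 0.08 than in cortex and by 2.61 ± 0.06 than in hippocampus (log2, SE). Its hippocampal level was in turn higher by 3.28 ± 0.07 than the striatal one, and striatum and cortex were not called different (adjusted p = 0.646, 95% interval of the log2 difference -0.22 to 0.14). ENSRNOG00000009411 had another order, with the striatum next after cerebellum. It was higher in cerebellum by 2.50 ± 0.03 than in striatum and by 4.13 ± 0.04 and 4.14 ± 0.04 than in hippocampus and cortex, which were not called different from each other (adjusted p = 0.800, interval -0.06 to 0.08).

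ENSRNOG00000018070 and ENSRNOG00000014061 fell in the order cerebellum, hippocampus, cortex, striatum. The cerebellum was above the hippocampus by 1.46 ± 0.06 and 2.38 ± 0.09, and the log2 differences of striatum minus cortex were -0.20 ± 0.08 (adjusted p = 0.0286, edgeR) and -0.73 ± 0.12 (SE). The call of ENSRNOG00000018070 between striatum and cortex was lost in 3 of 10 fits without 1 animal, at adjusted p of up to 0.0664. ENSRNOG00000011789 was the most evenly spread of the genes, higher in cerebellum by 1.55 ± 0.05 than in striatum, 1.66 ± 0.05 than in hippocampus and 2.24 ± 0.05 than in cortex. By medians of WT libraries it held 108 CPM in cerebellum, 36.4 in striatum, 33.3 in hippocampus and 23.0 in cortex.

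**Figure D3:**
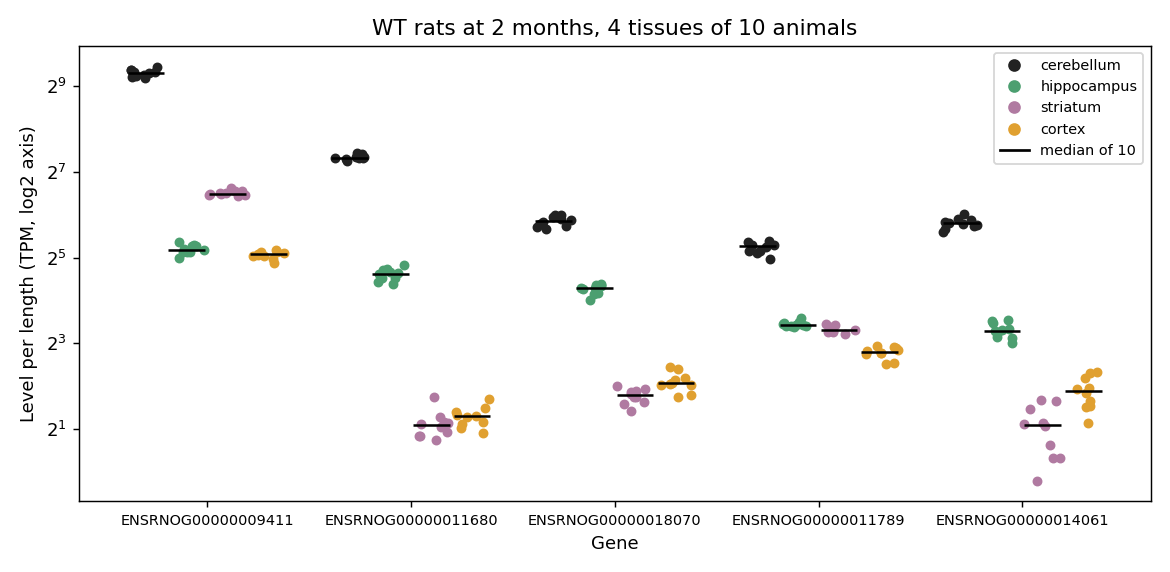
Level per length (TPM, y axis on a log2 scale) of each gene (x axis) in the 4 tissues of the 10 WT rats at 2 months, 1 point per library and a black bar at the median. Each gene is highest in cerebellum, and the order of the other tissues differs between genes, with striatum next for ENSRNOG00000009411 and hippocampus next for ENSRNOG00000011680.

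In hippocampus, striatum and cortex the genotypes were compared at each age with libraries that had no part in the choice. Those of 6 and 12 months come, however, from the same animals as the cerebellar libraries used in the choice. None of the 5 genes was called in any of the 9 comparisons by edgeR. Over all genes, 393 of 15500 genes (2.54%) were called in striatum at 2 months, 1 of 15504 (0.00645%) in cortex at 2 months, and 0 (0%) in the other 7. The count in striatum at 2 months was 0 with the first and repeat columns of the males exchanged and 79 to 1159 without 1 library each. Of the 45 estimates, 20 were below 0 and 25 above, the lowest adjusted p was 0.335, and 2 had an unadjusted p under 0.05. These were ENSRNOG00000011680 in striatum at 12 months, where 9.76% of all genes had such a p, and ENSRNOG00000018070 in hippocampus at 2 months, where 6.14% had. DESeq2 called 0 of the 5 in each of the 9 as well.

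The largest forebrain estimate was that of ENSRNOG00000011680 in striatum at 12 months, where the WT libraries held 3.07 to 5.15 CPM and the Q130 libraries 3.92 to 82.6 CPM with a median of 5.02. The fitted log2 fold change was 1.66 ± 0.54 (SE, adjusted p = 0.496). The highest value belonged to the library labelled Q130 male 3, which stood apart from its tissue, and the library labelled Q130 cortex male 4 of the same animal held 58.7 CPM, against a Q130 cortical median of 6.42 CPM. The cerebellar library of that animal held 346 CPM, the highest of the Q130 group. Without the libraries that stood apart the log2 fold change in striatum was 0.22 ± 0.11 (adjusted p = 0.389) and that in cortex 0.12 ± 0.16, in place of 0.80 ± 0.41. What sets these libraries apart was not tested.

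At 6 months 1 animal gave the libraries labelled Q130 striatum male 1 and Q130 hippocampus male 5, and each held levels like those of the other tissue. In the library labelled striatum, ENSRNOG00000011680 was at 47.99 CPM and ENSRNOG00000009411 at 21.9 CPM, where the WT hippocampal medians were 60.8 and 23.8 CPM and the WT striatal medians 5.57 and 83.8 CPM. In the library labelled hippocampus, ENSRNOG00000011680 was at 6.08 CPM and ENSRNOG00000009411 at 82.6 CPM. Without the libraries that stood apart the estimates for ENSRNOG00000011680, ENSRNOG00000014061 and ENSRNOG00000018070 in striatum at 6 months went from 0.65, 0.45 and 0.41 to -0.07, 0.02 and -0.03 (log2). Over all 9 forebrain comparisons without such libraries the 45 estimates ran from -0.23 to 0.38, with 0 called.

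**Figure D4:**
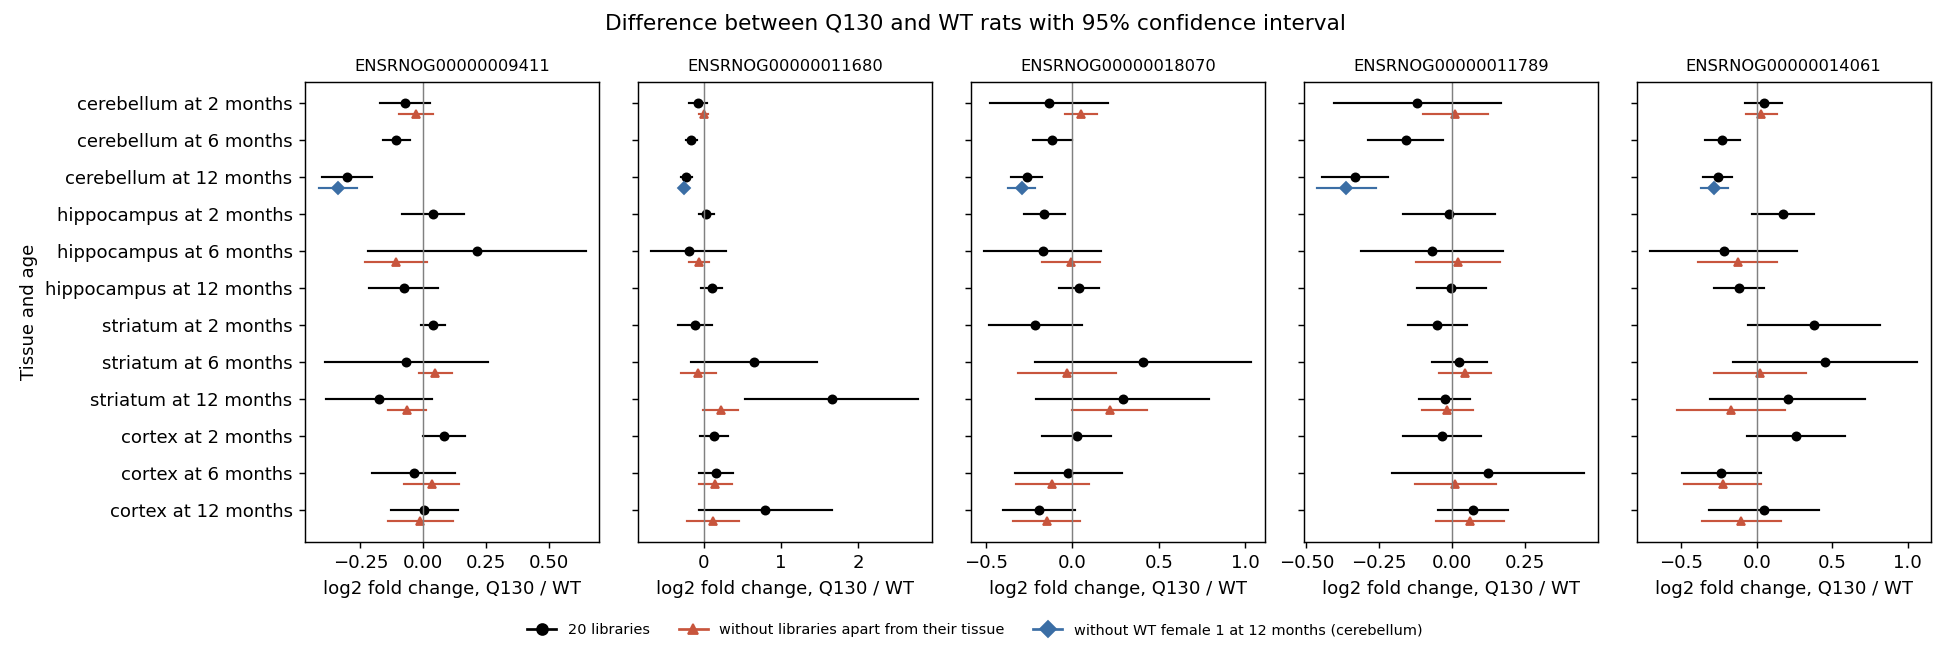
Log2 fold change of Q130 over WT (x axes, which differ in range between genes) with its 95% confidence interval in the 12 comparisons of tissue and age (y axis), from 20 libraries (black circles), without libraries that stood apart from their tissue (red triangles) and, in cerebellum, without the library labelled WT female 1 (blue diamonds). The cerebellar intervals at 12 months lie below 0 by the choice of genes, and the wide forebrain intervals narrow without the libraries that stood apart.

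For 4 of the genes the deposited gene counts equalled those of a single transcript in the transcript tables, matched by counts to within 0.05 in all libraries where they could be compared. ENSRNOG00000009411 equalled the sum of ENSRNOT00000084256 (2192 bases) and ENSRNOT00000012655 (1075 bases). The share of the gene's estimated counts given to the shorter transcript was lowest in cerebellum, at 15.1% ± 0.63 (SD, n = 10) in WT rats at 2 months, against 18.6% ± 0.74 in striatum, 23.0% ± 1.85 in cortex and 26.2% ± 3.07 in hippocampus. It was lower in cerebellum in 10 of 10 animals for each of the 3 contrasts, with mean differences of -3.50, -7.97 and -11.1 percentage points (exact two-sided sign-flip test, p = 0.00195, the smallest that 10 animals allow, and the same after adjustment over the 3). How the counts are split between transcripts is an estimate of the authors' software.

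The share did not differ detectably between genotypes. At 12 months it was 14.2% ± 0.56 in WT and 14.4% ± 0.59 in Q130 cerebellum (SD, n = 10 each), a difference of 0.17 percentage points (exact permutation within sex, two-sided, p = 0.516). The lowest of the 12 adjusted p values over tissues and ages was 0.670. At 2 months the cerebellar difference of -1.32 percentage points was -0.08 without the libraries that stood apart.

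**Figure D5:**
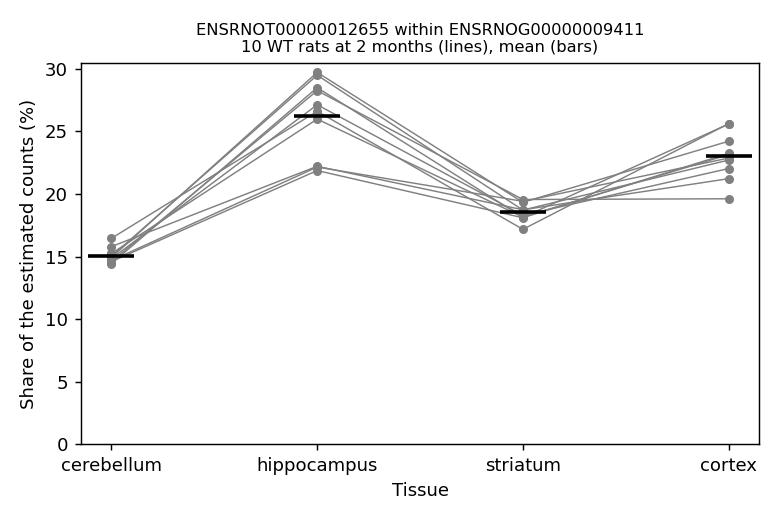
Share of the estimated counts of ENSRNOG00000009411 given to its shorter transcript ENSRNOT00000012655 (y axis, percent) in the 4 tissues (x axis) of 10 WT rats at 2 months, with a grey line per animal and a black bar at the mean. The cerebellum is the lowest tissue in each animal, with a mean of 15.1% against 18.6 to 26.2% in the others.

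Ages 6 and 2 months were compared within WT rats in the forebrain tissues, all in batch 1. ENSRNOG00000009411 was lower at 6 months in all 3, with medians of 98.3 and 83.8 CPM at 2 and 6 months in striatum, 31.7 and 23.8 in hippocampus and 32.1 and 25.2 in cortex. The log2 fold changes were -0.24 ± 0.03 in striatum (adjusted p = 9.03e-07), -0.38 ± 0.05 in hippocampus (adjusted p = 1.87e-05) and -0.29 ± 0.07 in cortex (adjusted p = 0.0299, edgeR). Over all genes, 2658 of 15539 genes (17.1%) were called in striatum, 2643 of 15474 (17.1%) in hippocampus and 550 of 15495 (3.55%) in cortex. In cortex the call was lost in 10 of 20 fits that left out 1 library (adjusted p 1.12e-05 to 0.0577), and without the WT library that stood apart the log2 fold change was -0.36 with 1688 of 15544 genes called (10.9%).

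ENSRNOG00000011789 was lower at 6 months in striatum, at medians of 36.4 and 32.8 CPM and a log2 fold change of -0.15 ± 0.04 (adjusted p = 0.00759), and was not called in the other tissues. ENSRNOG00000014061 was higher in cortex, at medians of 4.73 and 6.43 CPM and a log2 fold change of 0.46 ± 0.13 (adjusted p = 0.0470). That call was lost with limma-voom (adjusted p = 0.0684), without a filter on low counts (0.0635) and in 14 of 20 fits without 1 library. ENSRNOG00000011680 and ENSRNOG00000018070 were not called in any of the 3 tissues.

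Between the sexes none of the 5 genes was called in the cerebellum at 2 months, where 17 of 15349 genes were (0.111%). The log2 differences of males over females ran from -0.18 to -0.08, with adjusted p of 0.551 or more. Both cerebellar libraries that stood apart at this age are males, and without them the differences ran from -0.10 to 0.06, where ENSRNOG00000018070 went from -0.12 to 0.06. Between the first (batch 1) and the repeat (batch 2) striatal library of 12 males none of the 5 was called either, where 633 of 15425 genes were (4.10%). ENSRNOG00000009411 averaged 91.7 ± 9.43 CPM in the first and 97.5 ± 9.10 CPM in the repeat libraries (SD, n = 12), and was higher in 10 of 12 repeats, with a log2 difference of 0.09 ± 0.05 (SE, adjusted p = 0.374). For the other 4 genes 5 or 6 of the 12 repeats were higher.

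Over the 24 means of tissue, age and genotype, ENSRNOG00000011680 and ENSRNOG00000018070 had the most similar profiles of any pair among the 5 (r = 0.995), and each was the nearest of 13727 genes to the other. ENSRNOG00000009411 was least like those 2 (r = 0.657 and 0.617) and nearest to ENSRNOG00000008055 (r = 0.996). The nearest genes to ENSRNOG00000011789 and ENSRNOG00000014061 were ENSRNOG00000019649 (r = 0.993) and ENSRNOG00000055278 (r = 0.990). These points share tissues, animals and batches, and no p is given.

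Among the cerebellar libraries, after removing the mean of each age, genotype and sex, the genes varied less together. Pairwise correlations ran from -0.37 to 0.72 over 60 libraries with a median of 0.26. Without the libraries apart or against the label they ran from -0.25 to 0.46 over 57 libraries with a median of 0.21. The highest of these was between ENSRNOG00000011680 and ENSRNOG00000011789, and the lowest between ENSRNOG00000011789 and ENSRNOG00000014061. The gene nearest to ENSRNOG00000011789 over the 60 libraries was ENSRNOG00000000942 (r = 0.924, and 0.751 over the 57), which stands at rank 12 among the genes lower at 12 months. Over the 57 libraries ENSRNOG00000013351 was nearer (r = 0.765). These libraries share batches and depth, and no p is given.

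Of the 5 genes, 3 belong to the cerebellum-enriched genes, those whose WT level at 2 months exceeded that of each other tissue by 2 or more on the log2 scale. The group held 272 other genes, of 15177 genes tested in cerebellum at 12 months. The other 272 genes of that group summed to 24592 through 27421 to 28932 CPM in WT and to 23378 through 25573 to 26793 CPM in Q130 cerebellum at 12 months (lowest, median and highest library). The groups overlapped, and without the library labelled WT female 1 the WT libraries held 25257 to 28932 CPM. Of the 272 genes 19 were called lower and 2 higher, with a median log2 fold change of -0.03 against -0.001 over all genes tested, of which 0.705% were called lower. Without the library labelled WT female 1, 31 were called lower and 3 higher, where 1.37% of all genes were called lower. At 2 months 0 of the 272 were called, and their median log2 fold change was -0.04. The WT libraries of 2 months also defined the group by their high cerebellar level, which can lower this value. It is therefore not set against that at 12 months. The summed medians at 2 months were 28816 CPM in WT and 28835 CPM in Q130 rats. The Q130 libraries that stood apart are among these, and no value was taken without them. At 6 months 4 were called lower (0.242% of all genes) and 0 higher, with a median log2 fold change of -0.008. The summed medians were then 27536 CPM in WT and 28034 CPM in Q130 rats. The part of this group's level in the differences of the 5 genes was not tested.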

How the data were processed

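RNA sequencing libraries of 4 tissues of 60 rats were grouped by the labels for genotype, tissue, age and sex. Per the labels' protocols, total RNA of frozen tissue was checked on a Bioanalyzer and enriched subfractions were made into Illumina libraries. For the aligner, the counter and the genome build, nothing is given in the sources used. Expected counts per gene and transcript, as the authors deposited them, were rounded for testing. The deposited gene table named FPKM has 1 total in all libraries, that of TPM, and is read as TPM, and the authors' transcript FPKM values gave transcript lengths and an alternative share. Columns with dotted names were taken as repeat libraries, an inference from their names.

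All tests but those of transcript shares used edgeR 4.0.16 in R 4.3.3 (filterByExpr, TMM, robust quasi-likelihood F test) on all genes, with sex or the animal as covariate. Their p-values were Benjamini-Hochberg adjusted over the table and called under 0.05. Only the genotype fit in cerebellum at 2 months and the cerebellum against striatum fit, blocked by animal, were tried on simulated counts. The alternatives used DESeq2 1.42.0, limma 3.58.1, other filters, other groups of libraries and fits without each library. CPM values use TMM library sizes over 252 libraries, correlations a prior count of 2, and intervals a level of 95%. The 5 genes and the lists were chosen with earlier results of these data known. The genes named besides were the nearest in profile and the next by rank, and others were named after their values were seen. Lists written as gene symbols were not used here. For genotype, age and sex the p-values measure the spread between animals. Tissues and repeat libraries were compared within animals, and there the p-values measure the spread of the differences within animals.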

Additional observations from a re-analysis of the deposited data

Results flagged for a closer look

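The highest or the lowest library of a gene was marked where its gap to the nearest library exceeded the 95% critical value of Dixon's test in its group of 10. Over the 5 genes 120 groups were examined and 29 values, each in a group of its own, were marked, where chance marks about 1 in 20 groups. Of these, 17 values belong to the 9 libraries that stood apart from their tissue, 2 to the library labelled WT female 1 of the 12-month cerebellum, and 10 to other libraries. What sets these values apart was not tested.

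In the library labelled WT female 1 of the 12-month cerebellum, ENSRNOG00000009411 (424 CPM) and ENSRNOG00000011680 (315 CPM) lay below the other WT libraries. In the cerebellum at 2 months the library labelled Q130 male 1 was low for ENSRNOG00000009411 (424 CPM) and ENSRNOG00000018070 (8.99 CPM), and Q130 male 2 for ENSRNOG00000011789 (38.6 CPM). The 6-month library labelled Q130 striatum male 1 was low for ENSRNOG00000009411 (21.9 CPM) and high for ENSRNOG00000011680 (48.0 CPM), ENSRNOG00000018070 (11.1 CPM) and ENSRNOG00000014061 (12.7 CPM). The 6-month library labelled Q130 hippocampus male 5 was high for ENSRNOG00000009411 (82.6 CPM) and low for ENSRNOG00000011680 (6.08 CPM). WT cortex male 4 at 6 months was high for ENSRNOG00000009411 (37.5 CPM) and low for ENSRNOG00000011789 (6.78 CPM). Q130 cortex male 4 at 12 months was high for ENSRNOG00000011680 (58.7 CPM) and ENSRNOG00000014061 (10.5 CPM) and low for ENSRNOG00000018070 (1.96 CPM). At 12 months the striatal libraries of Q130 male 3 (82.6 CPM of ENSRNOG00000011680) and Q130 female 2 (7.40 CPM of ENSRNOG00000018070) were high, and Q130 hippocampus male 3 at 6 months was low for ENSRNOG00000011789 (14.9 CPM).

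The other marked values came from libraries that neither stood apart from their tissue nor belonged to the animal against its label. For ENSRNOG00000011680 they were Q130 cortex male 5 (10.1 CPM) and WT cortex female 2 (8.39 CPM) at 6 months and WT striatum female 4 at 2 months (9.73 CPM). For ENSRNOG00000011789 they were Q130 cortex male 4 (15.8 CPM), Q130 hippocampus female 5 (20.2 CPM) and WT hippocampus female 3 (37.4 CPM) at 2 months and WT hippocampus male 3 at 6 months (23.7 CPM). For ENSRNOG00000018070 they were the cerebellar libraries of Q130 female 5 at 6 months (25.4 CPM) and Q130 male 1 at 12 months (32.9 CPM), and for ENSRNOG00000014061 that of Q130 female 2 at 12 months (46.9 CPM).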

How the results depend on the processing

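In the cerebellum at 12 months, in the libraries that chose them, all 5 genes stayed called in each of the 20 fits without 1 library and with DESeq2, limma-voom and no filter on low counts, and the log2 fold changes kept their direction in every fit run. The number called was 3 in 1 fit over the 60 libraries of the tissue, where ENSRNOG00000011789 and ENSRNOG00000018070 were lost, and 0 in females alone. Over all genes the 238 calls became 662 with DESeq2, 105 without a filter, 49 in the fit over 60 libraries, 0 in females alone, 88 in males alone and 446 without the library labelled WT female 1, and 50 to 446 without 1 library each. At 6 months 1 of the 5 was called by edgeR, 3 with DESeq2, and 0 without a filter, with limma-voom, in the fit over 60 libraries, in females alone, in males alone and with the filter set by the design, and 0 to 3 without 1 library each. Over all genes the 44 calls at 6 months became 380, 10, 9, 3, 6, 2 and 11 in these fits, in that order, and 4 to 471 without 1 library each, the highest without WT male 5. At 2 months 0 calls over all genes became 2 without the libraries that stood apart and 0 to 1 without 1 library each. In forebrain comparisons none of the 5 was called by any alternative but 1, ENSRNOG00000011680 in striatum at 12 months in the fit over 60 libraries (log2 fold change 1.70, 1 gene of the 5), a fit that called 1124 genes there, 324 in cortex at 12 months and 11 in hippocampus at 6 months, against 0 each. In striatum at 2 months the 393 calls over all genes became 1006 with DESeq2, 1 in the fit over 60 libraries, 2 in females alone, 1 in males alone and 0 with first and repeat columns exchanged, and 79 to 1159 without 1 library each. For age in cortex 2 of the 5 were called, 1 with limma-voom and 1 without a filter, and 0 to 2 without 1 library each, and for age in hippocampus 1 to 2. The cause of these changes was not tested.

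No source says that equal replicate numbers pair animals, and pairs of equal number within sex correlated at -0.10 to 0.21 in the cerebellum at 2 months, 0.02 to 0.11 at 6 and -0.09 to 0.08 at 12. With the replicate block, 5 of the genes were called in cerebellum at 12 months and 125 over the table, 1 and 18 at 6 months, where the call moved from ENSRNOG00000011680 to ENSRNOG00000014061, and 0 and 0 at 2 months. The block gave 259 calls in striatum at 2 months, and for age in cortex 299 calls and 1 of the 5 genes. Each cerebellar library was also set against the 5 libraries of its sex and age with the other genotype. The highest correlation was at its own number in 6, 11 and 1 of the 20 libraries at 2, 6 and 12 months. Pairs of other numbers had a median r of -0.01 at 2 months, -0.01 at 6 and 0.002 at 12. All pairs of equal number at 6 months lay above that median, and what they share was not tested. Depth limits the lowest members most, with as few as 15 counts of ENSRNOG00000018070 in a striatal library.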
